A study of Mus musculus with 2 samples.

Results

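The genes examined were 9 feedback inhibitors of ERK signalling, taken from the deposited gene list by symbol: the Spred genes Spred1, Spred2 and Spred3, the Sprouty genes Spry1, Spry2 and Spry4, and the dual-specificity phosphatase genes Dusp4, Dusp5 and Dusp6. All 9 were found among the 31053 genes of the matrix. They were read in single-cell RNA profiles of B16 tumours, which grow from a mouse melanoma line, after a sort for live CD45+ cells. CD45 is a surface protein of leucocytes. The mice were 8 weeks old. In the WT group they were Mettl3 fl/fl and carried no Cre, and in the KO group they were Mettl3 fl/fl with Cre recombinase in 1 allele of Lyz2. That gene is active in granulocytes, monocytes and macrophages, so lymphocytes and tumour cells of both groups should keep Mettl3, which encodes the enzyme that writes N6-methyladenosine (m6A) on RNA. Both groups thus share the floxed alleles, and differ in the Cre and in 1 Lyz2 allele. Each genotype is represented by 1 library, made from the pooled cells of several mice, which leaves no replicate against which a difference between genotypes could be tested. All intervals are 95% intervals that cover counting error only, and a difference compares these 2 libraries, not the genotypes.

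Growth factor receptors such as the CSF1 receptor of macrophages switch on Ras, which signals through a chain of kinases, MEK among them, to the kinase ERK. Many genes that ERK induces encode its own inhibitors. Sprouty proteins act between the receptor and the kinase chain, SPRED proteins bring the Ras inhibitor neurofibromin to the membrane, and DUSP proteins remove phosphate from ERK, DUSP6 in the cytoplasm and DUSP4 and DUSP5 in the nucleus. Spred2 is the member that the study placed downstream of METTL3 and of the m6A reader YTHDF1, at the level of translation. Protein, translation and m6A were not measured in these libraries, which count the 3′ ends of transcripts.

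Since m6A is written in short sequence contexts, the coding sequences of the members were searched for GGAC, on the sense strand, and for GGACT, which contains it. The longest coding transcript of each gene in GENCODE release M21 was used, on GRCm38, the assembly called mm10 in the deposited data. Spred2 (ENSMUSG00000045671, chromosome 11, 19924375 to 20024026, plus strand) held 10 GGAC in 1311 coding bases. Of these, 4 were GGACT, and their surroundings are shown because Spred2 carries the question of the study. Capitals mark the motif and the other bases are its neighbours in exons 4 and 7.
Spred2 exon 4, chr11:20005798-20005821: atgtcagaaaGGACTtggtctaca
Spred2 exon 4, chr11:20005862-20005885: caggaagtttGGACTtactttcca
Spred2 exon 7, chr11:20020933-20020956: cagaagacgcGGACTcctacgtgc
Spred2 exon 7, chr11:20021005-20021028: ttgattcttcGGACTtcggcttcg

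The motif is common, so these matches describe the letters only. At least 1 GGAC was present in the coding sequence of 96.6% of 21177 protein-coding genes, at a median of 4.64 per 1000 bases, and at least 4 GGACT in 16.5%. Spred2 had 7.63 GGAC per 1000 coding bases, a density reached by 13.3% of genes. Dusp6 (chromosome 10, 99263231 to 99267489, plus strand) had the densest coding sequence of the 9, with 11 GGAC or 9.62 per 1000 bases, and Spred1 (chromosome 2, 117121374 to 117182279, plus strand) the sparsest, with 4 GGAC or 3.003 per 1000 bases. The other members had between 3 and 8 GGAC.

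The libraries labelled WT and KO held 5895 and 8446 barcodes, of which 5661 and 8157 passed the study's filter of 200 genes and 10% mitochondrial UMIs (unique molecular identifiers, each standing for 1 captured transcript). Their median depths were 4354 and 3740 UMIs per cell, so the library labelled KO was the shallower. The 2 libraries shared 13 barcode sequences. Mettl3, the targeted gene, was read first. In macrophage-gated cells the level was 9.43 CPM (UMIs per 1000000 UMIs summed over the class) in the library labelled WT, within 8.05 to 10.98. The library labelled KO gave 10.8 CPM (9.27 to 12.5). The level was therefore not lower in this gate, where the label says the gene was deleted. In the macrophage-monocyte and monocyte classes described below, the log2 ratios of KO to WT were -0.14 (-0.67 to 0.40) and 0.21 (-0.36 to 0.81). Since 3′ counts do not separate intact from recombined alleles, these values check the labels only in part, and every direction below rests on the labels. Granulocyte-gated cells made up 9.66% and 2.97% of the kept cells. Cells were assigned to classes by the number of class markers with a UMI. The 12 classes compared here had at least 56 cells in each library, among them 1549 and 1823 macrophage-gated and 745 and 1999 monocyte-gated cells. A further 477 and 1024 cells, whose macrophage and monocyte marker numbers differed by less than 2, were called macrophage-monocyte. No class had markers of another class among the 10 genes that led it, with macrophage and monocyte markers both counted as own for macrophage-monocyte. Since the gate selects cells by their own markers, this does not check the class names. In the macrophage gate, 317 and 454 cells lay at the limit of the rule. Cells with markers of several classes, 691 and 817, were left out, as were 475 and 753 cells of no class and the classes with 18 cells or fewer in each library. No doublet caller was run.

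The 9 brakes were spread over the classes in different ways. All levels are CPM, and because these counts are not scaled by what each transcript yields, levels are compared between classes and not between genes. The class with the highest mean level of the 2 libraries was the mature dendritic cell (DC) for Spred1, Spred3 and Dusp5, the natural killer (NK) cell for Spred2 and Spry2, the melanoma cell for Spry4 and Dusp4, the monocyte for Dusp6 and the CD4 T cell for Spry1. These were 5 different classes of 12. For 5 of the 9 members each library on its own gave the same highest class, while Spred2, Spred3, Spry1 and Spry4 changed place. The top Spred2 and Spry4 values of the library labelled WT, both in melanoma cells, rested on 122 and 31 UMIs, and those of the library labelled KO, both in NK cells, on 11 and 2.

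**Figure D1:**
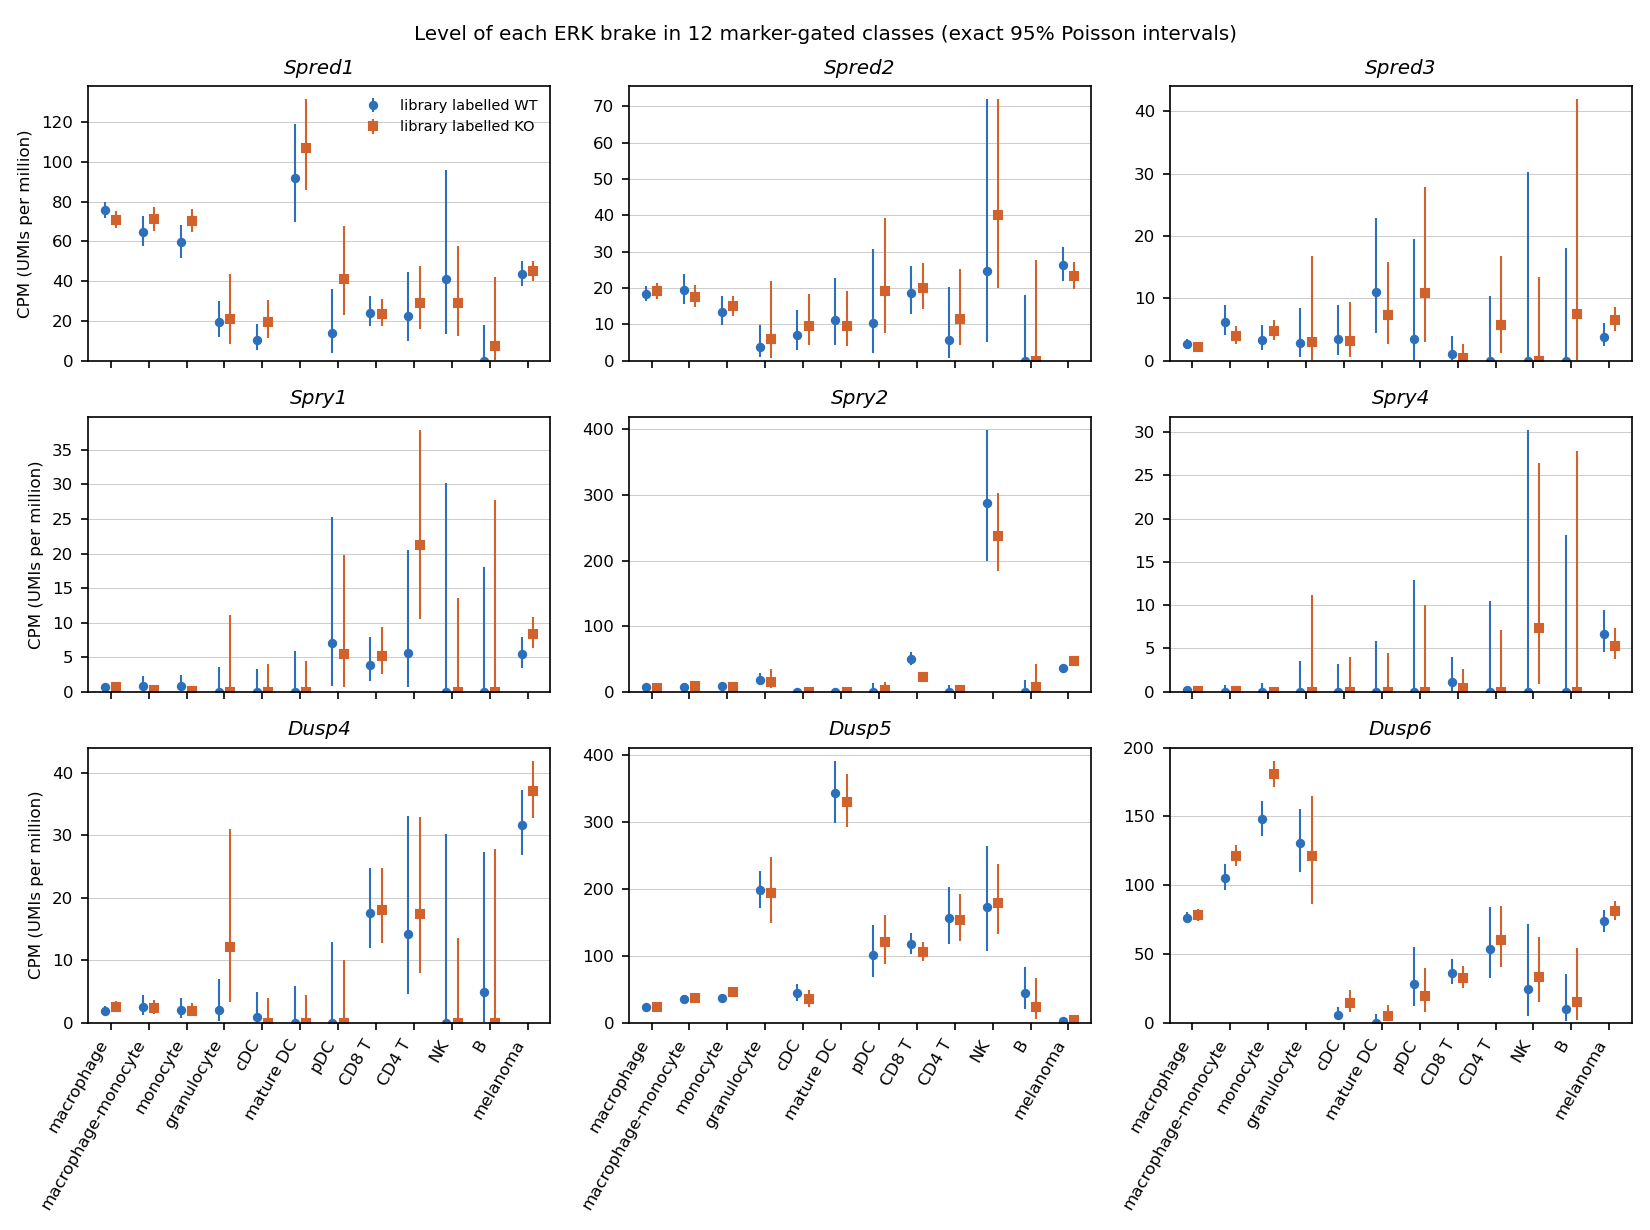
Level of each member (CPM, vertical axis from 0 and different in each panel) in 12 marker-gated classes, with circles for the library labelled WT, squares for the library labelled KO and bars for exact 95% Poisson intervals. Spry2 stands highest in NK cells, at 287 and 238, Dusp5 in mature DC, at 343 and 329.8, and Dusp6 in monocytes, at 148 and 181.

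Spred2 was expressed at similar levels in the macrophage gates of both libraries. In macrophage-gated cells it had 323 UMIs, or 18.4 CPM (16.4 to 20.5), in the library labelled WT and 316 UMIs, or 19.2 CPM (17.1 to 21.4), in the library labelled KO. The intervals overlap over most of their length. On the log2 scale the ratio of KO to WT was 0.06 (exact conditional interval -0.17 to 0.29), which does not reach 1.5-fold either way. Macrophage-monocyte cells gave 19.4 and 17.6 CPM from 88 and 138 UMIs, and monocyte-gated cells 13.5 and 15.0 CPM from 49 and 120 UMIs. Their log2 ratios were -0.14 (-0.53 to 0.27) and 0.15 (-0.34 to 0.66), so neither sign was resolved at this depth.

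The share of macrophage-gated cells with at least 1 Spred2 UMI was 17.6% (273 of 1549 cells, exact Clopper-Pearson interval 15.8 to 19.6%) for the label WT and 14.3% (261 of 1823 cells, 12.7 to 16.01%) for the label KO. Median depths of these cells were 9649 and 7285 UMIs. Thinning each cell to 1000 UMIs, which left 1465 and 1701 cells, gave shares of 1.64% (1.05 to 2.43%) and 1.82% (1.24 to 2.58%), in the opposite order and with overlapping intervals. The unthinned order goes with depth and against the CPM, and no difference is read from it. B-gated cells, the class with the lowest Spred2 level in both libraries, had 0 of 114 and 0 of 83 cells with a UMI. By the upper Clopper-Pearson bound this allows up to 3.18% and 4.35% of cells with a UMI, but these cells were shallow, with median depths of 1492 and 1158, so it sets no limit on the cells that express the gene.

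Spred2 was not particular to macrophages. Melanoma-gated cells, which passed the CD45 sort although they are tumour cells, had 26.3 and 23.3 CPM from 122 and 162 UMIs, and CD8 T cells had 18.6 and 19.9 CPM from 34 and 42 UMIs. The log2 ratios were -0.17 in melanoma cells and 0.10 in CD8 T cells. Of 12 alternatives each, 2 moved the melanoma ratio and 1 the CD8 ratio beyond counting error, and the highest values follow. In CD8 T cells thinned to 1000 UMIs the ratio was 2.28 (0.44 to 4.72) from 3 and 14 UMIs, and in melanoma cells without a cycling marker it was 2.71 (0.13 to 8.06) from 1 and 32 UMIs in 25 and 80 cells. NK cells had 24.6 and 40.2 CPM from 3 and 11 UMIs, with intervals of 5.07 to 71.9 and 20.1 to 71.99, so the first place of NK cells is not separated from melanoma cells or macrophages. Granulocyte-gated cells had 4 and 2 UMIs, or 3.88 and 6.05 CPM, and stood below the macrophage gate in the library labelled WT, where the intervals (1.06 to 9.94 and 16.4 to 20.5) do not meet. In the library labelled KO the granulocyte interval of 0.733 to 21.8 covered the macrophage level.

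Spred1, the closest relative of Spred2, was the most widely detected Spred gene. Mature DC, the Ccr7-expressing cells that travel to lymph nodes, had 92.03 CPM (69.9 to 119.0) from 58 UMIs and 106.7 (85.6 to 131) from 88 UMIs. Macrophage-gated cells had 75.8 (71.8 to 79.97) from 1334 UMIs and 70.8 (66.8 to 75.0) from 1168 UMIs. Mature DC therefore stood above macrophages by more than counting error in the library labelled KO, and not in the library labelled WT. The myeloid gates lay close together, with 64.9 and 71.0 CPM in macrophage-monocyte cells and 59.5 and 70.3 in monocytes. Conventional DC, at 10.6 and 19.4 CPM from 12 and 18 UMIs, were far below mature DC, with intervals of 5.45 to 18.4 and 11.5 to 30.7. Xcr1 and Clec9a, genes of type 1 conventional DC, were among the genes that led this class, and Cd209a was not. CD8 T cells had 24.1 and 23.7 CPM, and B-gated cells 0 and 1 UMI.

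Between the libraries, Spred1 gave a log2 ratio of -0.10 (-0.21 to 0.02) in macrophages, 0.13 (-0.08 to 0.34) in macrophage-monocyte cells and 0.24 (0.01 to 0.47) in monocytes. The interval of the monocyte value lay just above 0, and after thinning to 1000 UMIs it was -0.13 (-0.60 to 0.35) from 55 and 134 UMIs. Spred3 reached at most 11.1 CPM, in mature DC of the library labelled WT from 7 UMIs, with 2.67 and 2.24 CPM in macrophages from 47 and 37 UMIs. Of its melanoma levels, 3.88 and 6.48 CPM from 18 and 45 UMIs, the log2 ratio of 0.74 had an interval that includes 0 (-0.08 to 1.62).

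Among the Sprouty genes, Spry2 was highest in NK cells. It had 35 UMIs in the 56 NK cells of the library labelled WT, or 287 CPM (199.96 to 399), and 65 UMIs in the 131 NK cells of the library labelled KO, or 238 CPM (183 to 303). The next class, CD8 T cells in the library labelled WT at 49.8 and melanoma cells in the library labelled KO at 46.05, lay outside these intervals. A Spry2 UMI was found in 37.5% and 34.4% of NK cells, at median depths of only 1924 and 1581 UMIs, and after thinning in 25.5% and 18.03%. In CD4 T cells, whose median depths were 2219.5 and 2148 UMIs, it was found in 0 of 106 and 1 of 137 cells, and the 0 allows up to 10.4 CPM by the upper Poisson bound. Mature and conventional DC held no Spry2 UMI in either library, which allows up to 5.85 and 4.47 CPM in mature DC by the same bound.

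CD8 T cells carried the one difference of over 1.5-fold among members at a mean level of 10 or more in the 6 classes compared between the libraries. In the remaining classes some members at that level also passed 1.5-fold, all with intervals that include 0. Examples are Spred2 in NK cells, with a log2 ratio of 0.71 (-1.21 to 3.19), and Spry1 in CD4 T cells, with 1.90 (-0.29 to 5.12). The Spry2 level of CD8 T cells was 49.8 CPM (40.1 to 61.2) from 91 UMIs in 59 of 324 cells of the library labelled WT. In the library labelled KO it was 22.3 CPM (16.4 to 29.6) from 47 UMIs in 33 of 331 cells. The 2 intervals do not overlap, and no single cell held more than 7 and 3 of these UMIs. The log2 ratio was -1.16 (-1.70 to -0.64), and it lay between -1.39 and -0.91 under all 12 alternatives tried. Thinned to 1000 UMIs, 5.97% (3.64 to 9.17%) and 2.29% (0.92 to 4.66%) of CD8 T cells had a Spry2 UMI, intervals that overlap. The Lyz2 gene that carries the Cre is not a gene of T cells, and 1 library per genotype cannot separate genotype from mouse, tumour or library.

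The CD8 T cells were then divided in different ways. With a UMI of Gzmb, the gene of the killing enzyme granzyme B, they had 54.8 and 23.04 CPM from 65 and 40 UMIs, a log2 ratio of -1.25 (-1.86 to -0.66). Without one they had 40.6 and 18.7 CPM from 26 and 7 UMIs, a log2 ratio of -1.12 whose interval includes 0 (-2.57 to 0.12). Cells with a UMI of a cell cycle marker had 51.3 and 21.6 CPM, and those without had 46.2 and 24.5 CPM, a log2 ratio of -0.91 whose interval also includes 0 (-2.08 to 0.16). The 4 subdivisions therefore gave ratios between -1.25 and -0.91, and the share of cells with a Gzmb UMI was itself 45.1% in the library labelled WT and 55.3% in the library labelled KO. Because NK cells are rich in Spry2, the NK markers were read beside it. The 8 NK markers summed to 175 and 219.8 CPM in CD8 T cells, against 6603 and 7323 in NK cells, with all 8 detected in the library labelled WT and 1 at 0 in the library labelled KO. Of these 8 markers, 4 were higher in CD8 T cells of the library labelled KO. Other sums also differed in CD8 T cells, with 149 and 105 CPM for the 8 granulocyte markers, 673 and 783 for the 5 cycling markers and 974 and 840 for the 2 CD8 markers. The part of all these lists in the Spry2 result was not tested.

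**Figure D2:**
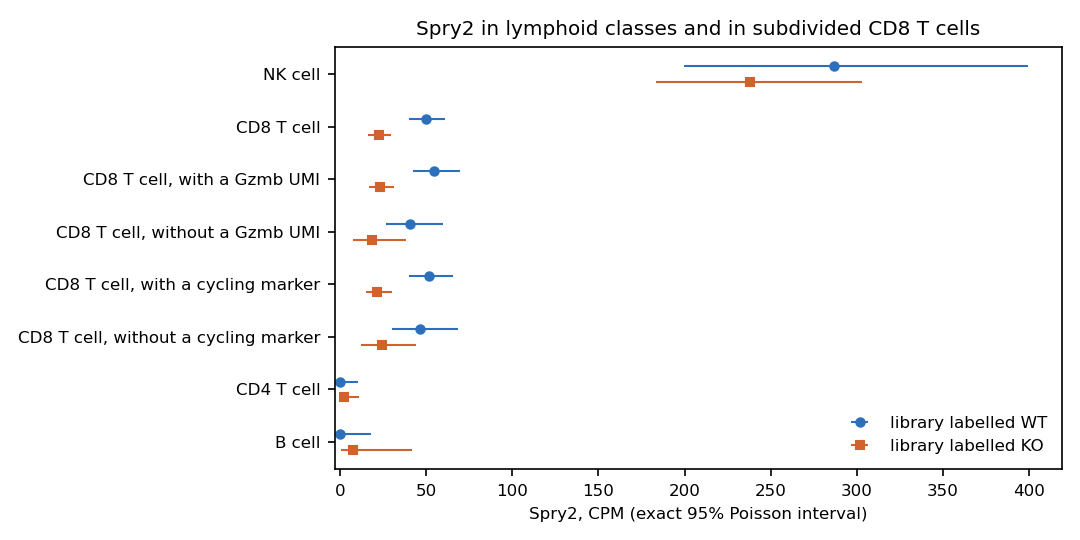
Spry2 level (CPM, horizontal axis) in lymphoid classes and in CD8 T cells divided by a Gzmb UMI or a cycling marker, with circles for the library labelled WT, squares for the library labelled KO and bars for exact 95% Poisson intervals. NK cells stand apart from all other rows at 287 and 238, CD8 T cells lie at 49.8 and 22.3, and CD4 T cells and B cells lie near 0.

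Other classes showed smaller Spry2 values or ratios. Macrophage-gated cells had 7.27 CPM (6.07 to 8.65) and 5.22 CPM (4.17 to 6.44) from 128 and 86 UMIs, a log2 ratio of -0.48 (-0.89 to -0.07). Thinned to 1000 UMIs per cell, the macrophage value was -1.35 (-3.23 to 0.29) from 11 and 5 UMIs. Marker sums of other cells also differed in this gate, with 727 and 249 CPM for the 8 granulocyte markers, 12.6 and 116 for the 6 plasma cell markers and 119 and 314 for the 6 melanoma markers. The 8 monocyte markers summed to 803 and 1053 CPM, 6 of them higher in the library labelled KO, and the 12 dissociation stress genes to 1981 and 2154, 10 of them higher. No marker of these lists was at 0. Their part in the macrophage values was not tested. Melanoma-gated cells had 36.4 and 46.05 CPM from 169 and 320 UMIs, a log2 ratio of 0.34 (0.06 to 0.62), but 1 melanoma cell of the library labelled KO held 24 of the UMIs, and the ratio was -0.13 after thinning and -0.068 among cells without a cycling marker. Across NK cells the log2 ratio was -0.27 (-0.89 to 0.36).

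Spry1 and Spry4 were sparse. Spry1 had 2 UMIs in 106 CD4 T cells of the library labelled WT and 11 UMIs in 137 CD4 T cells of the library labelled KO, or 5.66 and 21.2 CPM. With so few UMIs the log2 ratio of 1.90 was bounded only by -0.29 and 5.12. In melanoma cells Spry1 reached 5.39 and 8.35 CPM from 25 and 58 UMIs, and in macrophages 0.625 and 0.606 CPM. Spry4 was found mostly in melanoma cells, which gave 31 of the 54 Spry4 UMIs in the library labelled WT and 37 of 61 in the library labelled KO, or 6.68 and 5.32 CPM. Macrophages held 3 and 2 of them, and NK cells 0 and 2, where the 2 UMIs already stand for 7.32 CPM (0.886 to 26.4).

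Of the phosphatases, Dusp6 marked the monocyte side of the myeloid cells. In the library labelled WT it had 148 CPM (135.7 to 161) in monocytes, 105 (96.2 to 115) in macrophage-monocyte cells and 76.3 (72.3 to 80.5) in macrophages. The library labelled KO had 181 (172 to 190.5), 121 (114 to 129) and 77.9 (73.7 to 82.3). In both libraries the 3 gates thus stood in the same order with no overlap between neighbours. Granulocytes, at 131 and 121 CPM from 135 and 40 UMIs, overlapped with monocytes in the library labelled WT and not in the library labelled KO. Mature DC were nearly without Dusp6, with 0 and 4 UMIs, and conventional DC had 5.28 and 14.02 CPM. In CD4 T cells it reached 53.8 and 59.7 CPM and in CD8 T cells 36.1 and 32.7.

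On the monocyte side Dusp6 was higher in the library labelled KO by a small amount beyond counting error. KO over WT gave log2 ratios of 0.29 (0.15 to 0.44) in monocytes and 0.20 (0.04 to 0.36) in macrophage-monocyte cells, and 0.03 (-0.08 to 0.14) in macrophages. Under the alternatives the monocyte value stayed between 0.26 and 0.38, and the macrophage value moved between -0.16 and 0.14. None of these reached 1.5-fold. Several marker sums of other cells moved with it in the monocyte gate, and their part in the result was not tested. The 8 granulocyte markers summed to 1196 and 364 CPM, the 6 melanoma markers to 639 and 130.2, the 8 macrophage markers to 1822 and 1504 and the 12 dissociation stress genes to 4234 and 3968, each lower in the library labelled KO and with no marker of these lists at 0. The 6 plasma cell markers went the other way, at 10.7 and 83.8 CPM with 1 and 2 of them at 0, as did the 8 T cell markers, at 41.6 and 54.2 CPM with none at 0. Sums differed in the macrophage-monocyte gate too, with 7730 and 6695 CPM for the macrophage markers and 3616 and 4237 for the monocyte markers, 3 of these 8 higher. The granulocyte markers summed to 1051 and 535 there and the melanoma markers to 250 and 84.1. Their part in the Dusp6 value of that gate was not tested.

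**Figure D3:**
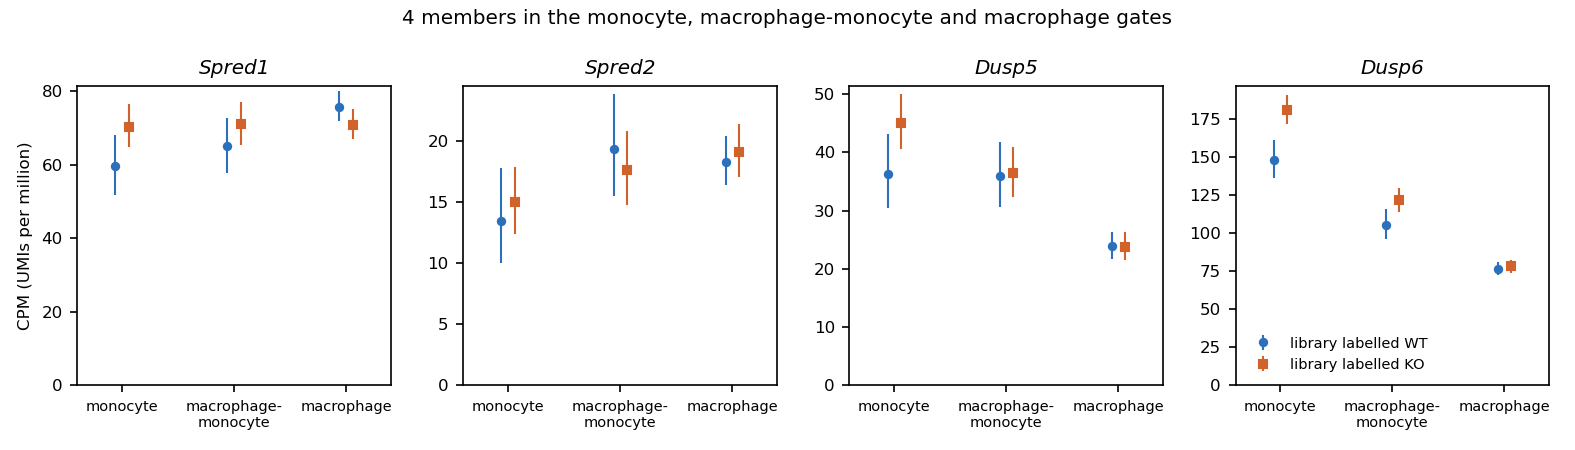
Levels of Spred1, Spred2, Dusp5 and Dusp6 (CPM, vertical axes from 0) in the monocyte, macrophage-monocyte and macrophage gates, with circles for the library labelled WT, squares for the library labelled KO and bars for exact 95% Poisson intervals. Dusp6 goes from 148 and 181 in monocytes to 76.3 and 77.9 in macrophages, while Spred1 stays between 59.5 and 75.8 in all 3 gates.

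Dusp5, the nuclear phosphatase of ERK, had a distribution of its own. Mature DC had 343 CPM (298.5 to 392) from 216 UMIs and 329.8 (292 to 371) from 272 UMIs, above every other class in both libraries by more than counting error. A Dusp5 UMI was present in 72.9% and 64.7% of mature DC, and in 7.89% and 3.61% of B-gated cells. Behind mature DC came granulocytes at 198 and 194 CPM, NK cells at 172 and 179, CD4 T cells at 156 and 154, CD8 T cells at 118 and 106 and plasmacytoid DC at 102 and 120.1. Neighbours in this order overlap in both libraries, except that in the library labelled KO CD4 T cells (122 to 192) lay above CD8 T cells (92.7 to 121). Conventional DC had 43.96 and 34.5 CPM, and melanoma cells 2.37 and 4.03. Mature DC thus had the highest Dusp5 and next to no Dusp6, and melanoma cells had next to no Dusp5 beside Dusp6 levels of 73.5 and 81.5 CPM.

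Within the myeloid gates Dusp5 was 36.4 and 45.1 CPM in monocytes and 23.9 and 23.8 in macrophages. The log2 ratio between the libraries was 0.31 (0.02 to 0.61) in monocytes and -0.01 (-0.21 to 0.19) in macrophages. Macrophages with a UMI of a cell cycle marker had less Dusp5 than those without, at 18.7 (16.2 to 21.4) against 33.3 (29.0 to 38.1) CPM in the library labelled WT and 19.4 (16.8 to 22.4) against 30.3 (26.3 to 34.9) in the library labelled KO. The intervals of the 2 subdivisions do not meet in either library, although cells with a cycling marker were also the deeper ones, with median depths of 14479 against 6786.5 and 11611.5 against 5123 UMIs. Spred2 did not show such a gap, with 19.1 and 17.0 CPM in the library labelled WT.

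Dusp4 was highest in melanoma cells, with T cells next. Melanoma cells had 31.7 CPM (26.8 to 37.2) from 147 UMIs and 37.1 (32.7 to 41.9) from 258 UMIs, above CD8 T cells, macrophages and monocytes by more than counting error. CD8 T cells had 17.5 and 18.0 CPM, and CD4 T cells 14.1 and 17.3 with intervals (4.59 to 33.0 and 7.92 to 32.9) that reach the melanoma ones. In CD4 T cells the UMIs lay mostly in those with a UMI of Foxp3, the gene of regulatory T cells, with 5 UMIs in 25 such cells and 0 in the other 81 cells of the library labelled WT, and 7 UMIs in 23 and 2 in the other 114 cells of the library labelled KO. In CPM these were 34.2 (11.1 to 79.9) and 36.01 (14.5 to 74.2) with Foxp3, and 0 (up to 17.8) and 6.15 (0.745 to 22.2) without, so the intervals overlap in both libraries. Cells with Foxp3 were also deeper, with medians of 3457 against 2022 and 7788 against 2018 UMIs. NK cells and mature DC held no Dusp4 UMI in either library, which in NK cells still allows up to 30.3 and 13.5 CPM. Macrophages had 1.87 and 2.55 CPM from 33 and 42 UMIs, and those without a cycling marker 1.43 and 3.35 from 9 and 22, while the 6 melanoma markers summed to 119 and 314 CPM in this gate, so RNA of melanoma cells was present there too, and its part in the Dusp4 level was not tested.

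Over 6 of the classes, the number of members that passed 1.5-fold was read against all genes with a mean level of 10 CPM or more, with 1 added to each level. In macrophages 0 of the 4 members at this level passed, beside 1.36% of 7653 genes. In macrophage-monocyte cells it was 0 of 4 beside 2.61%, and in monocytes 0 of 4 beside 4.89%. Granulocytes gave 0 of 4 beside 34.4%, and melanoma cells 0 of 5 beside 4.76%. CD8 T cells gave 1 of 6, Spry2, beside 7.93%. With at most 6 members at this level in a class, these counts do not set the members apart from other genes. The median log2 ratio of the members was 0.01 in macrophages and 0.26 in monocytes, beside medians of all genes of 0.02 and -0.01.

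**Figure D4:**
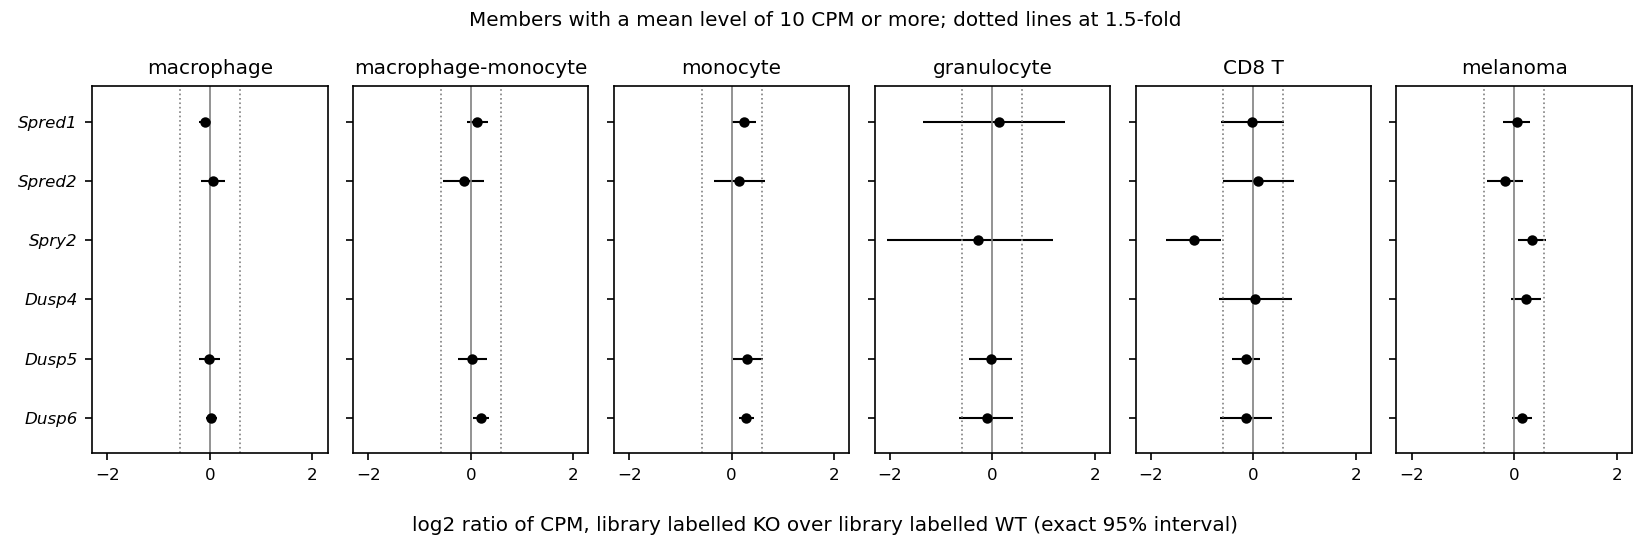
log2 ratio of CPM in the library labelled KO over the library labelled WT (horizontal axis) for members with a mean level of 10 or more, in 6 classes, with exact 95% intervals as bars and dotted lines at 1.5-fold. Spry2 in CD8 T cells, at -1.16, is the one point beyond the dotted lines, and the macrophage values lie between -0.10 and 0.06.

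The rest of the pathway was read in the same gates. Of 18 genes from adaptor to ERK at this level in macrophages, 0 passed 1.5-fold. Map2k1, which encodes the kinase MEK1, was among the highest ratios, at 57.6 and 65.1 CPM. The lowest ratios were those of Shc1 and Sos1, whose products act upstream of Ras. Of 12 other MAPK brakes 0 passed. The highest ratios were those of Cblb, at 21.6 and 23.6 CPM, and Dusp3, and the lowest those of Lztr1, at 13.6 and 11.8 CPM, and Rasal3. The median log2 ratios of these lists were -0.02 and -0.06, near that of all genes. Nf1, which encodes the neurofibromin that SPRED proteins carry, had 20.2 and 19.04 CPM.

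Receptors and ERK-induced genes were read next, beside the 1.36% of all genes that passed 1.5-fold in macrophages and the marker sums given with Spry2 for this gate, whose part was not tested. Among 5 receptors 1 was higher in macrophages of the library labelled KO, Met, at 9.32 and 15.3 CPM with a log2 ratio of 0.72 (0.43 to 1.01). Csf1r, the receptor for the macrophage growth factor CSF1, had 314 and 293 CPM. Among 12 ERK-induced genes 1 was higher, the transcription factor gene Egr2, at 23.5 and 37.9 CPM with a log2 ratio of 0.69 (0.51 to 0.87). Plaur, the receptor gene of urokinase, followed at 103 and 145 CPM, below 1.5-fold. Met, Egr2 and Plaur all had higher levels in monocytes than in macrophages in both libraries. Between the libraries Met went the other way in monocytes, at 50.4 and 36.5 CPM with a log2 ratio of -0.47 (-0.74 to -0.19). At the other end of the macrophage values stood Etv5, an ERK-induced transcription factor gene, at 49.2 and 38.6 CPM, a log2 ratio of -0.35 (-0.50 to -0.20). The cyclin gene Ccnd1 came next, at 250.2 and 216. In monocytes the log2 ratios of these 2 genes were positive, 0.27 (-0.22 to 0.77) for Etv5 and 0.49 (0.23 to 0.75) for Ccnd1.

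In monocytes 3 of 12 ERK-induced genes were higher and 1 was lower in the library labelled KO, beside 4.89% of all genes in either direction, and these 4 are named here after their values were seen. The median log2 ratio of the list was 0.38. Egr2 had 35.8 and 55.7 CPM, Plaur 217 and 354 and Plau, the gene of urokinase itself, 18.2 and 33.6, while the immediate-early gene Fos had 467 and 285. Axl was the 1 receptor of 8 past 1.5-fold, at 33.9 and 57.2 CPM. Of the 12 dissociation stress genes, Atf3 was higher, at 187 and 283 CPM, and Hspa1a and Hspa1b, heat shock genes, gave the lowest ratios, with 505 and 372 for Hspa1a and 452 and 344 for Hspa1b. Fos is induced by tissue digestion as well as by ERK, and the part of handling in its level was not tested.

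**Figure D5:**
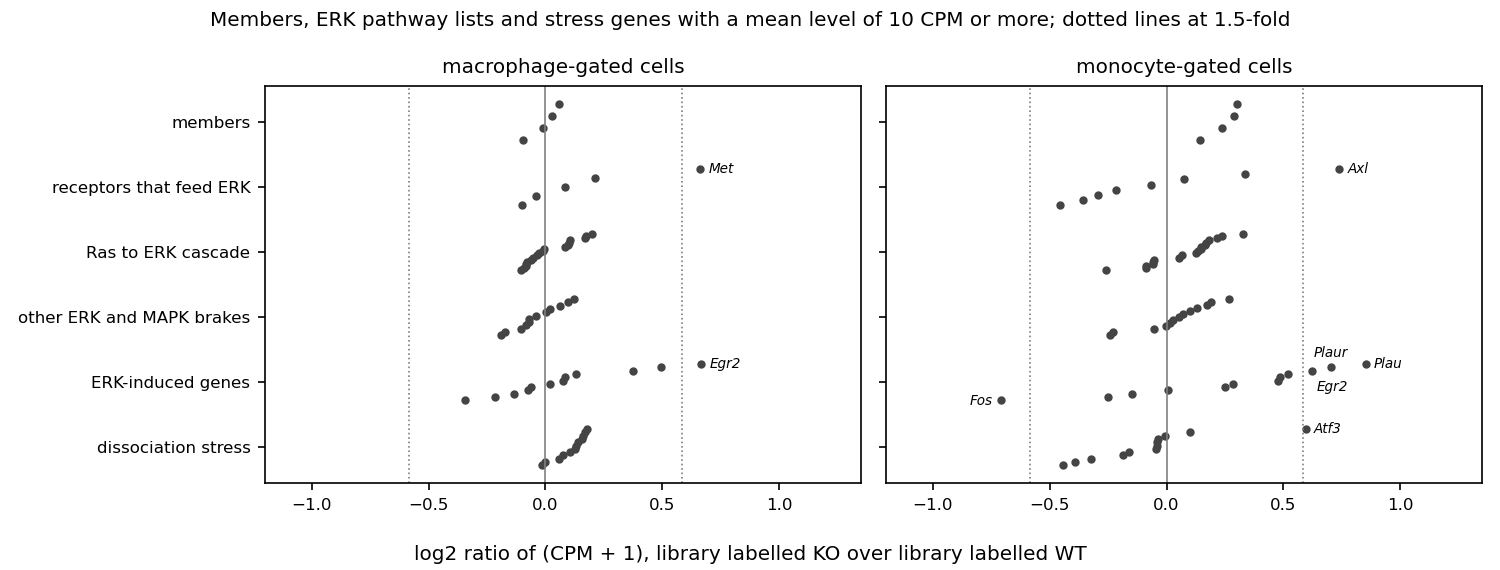
log2 ratio of CPM plus 1, library labelled KO over library labelled WT (horizontal axis), for each member and listed gene with a mean level of 10 or more, one point per gene, in macrophage-gated and monocyte-gated cells, with dotted lines at 1.5-fold. The members lie between the dotted lines in both gates, while Met and Egr2 in macrophages and Axl, Egr2, Plaur, Plau, Fos and Atf3 in monocytes lie beyond them.

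Likeness of patterns was described by the Pearson correlation of log2 levels over 24 points, the 12 classes of each library, which share 2 libraries and their depths and carry no test. Among the members, Spred1 and Spred2 were the most alike, with r = 0.74, followed by Spry1 and Dusp4 with 0.60 and by Spry2 and Spry4 with 0.59. Dusp5 and Spry4 were the least alike, with -0.44. Among 11804 genes, the closest to Spred2 were Chac2, Dcakd and Rab40c, all at 0.87 to 0.88, and the closest to Spred1 were Xaf1, Ggh and Asb8. Dusp5 was closest to Mob3a, Samsn1 and Selplg, at 0.90 to 0.91. Of these 3 genes nearest to Dusp5, 1 and 2 were also among the nearest 3 in each library alone. For Spred1 this number was 2 in the library labelled WT and 0 in the library labelled KO. For Spred2 it was 0 in both, so its list holds only for the 2 libraries together.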

How the data were processed

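Live CD45+ cells of B16 tumours were profiled with Chromium Single Cell 3′ v3 kits, 1 library per genotype. Per the file headers the authors made the count matrix with Cell Ranger 4.0.0, and per the labels on mm10. The deposited values are counts, whole UMIs per gene and barcode, with 27411178 entries and 100016286 UMIs over 14341 barcodes. The smallest barcode held 500 UMIs. The library of each barcode came from a further deposited table. The Seurat clusters of the study were not used here.

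Barcodes with at least 200 genes and at most 10% mitochondrial UMIs were kept. A class needed 3 detected markers and a lead of 2 over the next class. Macrophage-monocyte cells needed this lead only over the lists other than macrophage and monocyte. Raw UMIs were summed per class and library and scaled to 1000000 UMIs of the class (CPM). Exact Poisson, Clopper-Pearson and conditional binomial intervals (95%) were used, with Python 3.11.15, numpy 2.4.6, scipy 1.17.1 and pandas 2.3.3, and the functions were tested on simulated data. PCR duplicates are removed by the UMIs. The fold rule was 1.5 after adding 1 CPM, at a mean of at least 10.

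Named genes were the 9 members, the 2 highest and 2 lowest log2 ratios of each pathway list in macrophages, and the 3 genes most like a member. Of these, 1 gene of a pathway list is not reported here. The members, lists and markers were chosen with earlier results of these data known. Alternatives changed the filters, gates, scaling, thinning, pseudocount and floor. Cell cycle, Gzmb and Foxp3 subdivisions were added after seeing the data.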

Additional observations from a re-analysis of the deposited data

Results flagged for a closer look

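Spry2 differed in the direction of its log2 ratio of KO to WT between classes. The ratio was -0.48 (-0.89 to -0.07) in macrophage-gated cells, -1.003 (-1.49 to -0.53) in all T cells and -1.16 (-1.70 to -0.64) in CD8 T cells, and 0.34 (0.06 to 0.62) in melanoma-gated cells. With 1 library per genotype the difference between the classes was not tested. CD8 T cells are part of the T cells, so these are not separate observations. The macrophage value was -1.35 (-3.23 to 0.29) from 11 and 5 UMIs after thinning each cell to 1000 UMIs. The melanoma value changed sign under 2 alternatives, and 1 melanoma cell of the library labelled KO held 24 of its 320 UMIs.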

How the results depend on the processing

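No paired analysis was possible because there was 1 library per genotype and the result comes from no test, and for the same reason no library could be left out. The 28 log2 ratios of members were recomputed under 11 or 12 alternatives each, 332 values in all, of which 313 stayed within counting error of the reported value, 16 moved beyond it and 3 changed sign from a ratio whose interval lay on one side of 0. These 3 were Spred1 in monocytes, -0.13 after thinning each cell to 1000 UMIs, and Spry2 in melanoma cells, -0.13 after thinning and -0.068 among cells without a cycling marker, the latter chosen after seeing the data. The cause was not tested. A wide interval keeps most values inside it, as for Spry2 in granulocytes (-2.06 to 1.18), so the count of 313 says little about sparse results. Thinning also took the shares of macrophage-gated cells with a Spred2 UMI to 1.64% and 1.82%. Spred2 in macrophages stayed between 0.02 and 0.15 on the log2 scale. The number of macrophage members past 1.5-fold stayed 0 under 15 alternatives, among them a floor of 50 and none. The floor was changed only for the main values, and the other alternatives kept it at 10. Spry2 in macrophages after thinning, at 7.51 and 2.94 CPM, lay past 1.5-fold but under that floor. The highest class was kept for 7 to 9 of the 9 members, with Spred2, Spred3 and Spry4 the ones that changed. Of the 16 values that moved, 10 were in melanoma cells, where the cells without a cycling marker numbered 25 and 80. There the log2 ratio of Spred2 was 2.71 from 1 and 32 UMIs and that of Dusp6 1.67 from 8 and 125. After thinning, Spred2 in CD8 T cells was 2.28 from 3 and 14 UMIs and Spry2 in macrophages -1.35 from 11 and 5. Depth limits the smaller classes, since 1 UMI of a gene in NK or B cells is worth several CPM. The ratios of Spred3, Spry1 and Spry4 over whole classes, such as -0.25 (-0.91 to 0.40) for Spred3 in macrophages and 0.63 (-0.07 to 1.37) for Spry1 in melanoma cells, had intervals that include 0 wherever both libraries held a UMI. In the subdivisions chosen after seeing the data, 9 of 72 log2 ratios had an interval without 0, and for 4 of these the interval over the whole class included 0. These 4 were Spred3 in macrophages with a cycling marker, -1.04 (-2.15 to -0.014) from 28 and 12 UMIs, Dusp4 in macrophages without one, 1.23 (0.056 to 2.53) from 9 and 22, Spry2 in monocytes with one, -2.22 (-4.35 to -0.43) from 10 and 4, and Dusp6 in CD8 T cells without a Gzmb UMI, 0.99 (0.015 to 1.99) from 18 and 21.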
